A study of Mus musculus with 2 samples.

Results

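Counts of Pdcd1, the gene of the inhibitory receptor PD-1, were used to divide the cells of 1 single-cell RNA library into a class with 2 or more counted transcripts and a class with 0. Cells were chosen by their own Pdcd1 count: of 10387 cell barcodes, 4801 had at least 2000 unique molecular identifiers (UMIs, each standing for 1 captured transcript) and under 20% mitochondrial UMIs. Of these, 1121 cells (23.3%, 95% interval 22.2 to 24.6) held 2 or more Pdcd1 UMIs and are called Pdcd1 high. Another 2609 cells (54.3%, 52.9 to 55.8) held 0 and are called Pdcd1 undetected, and 1071 (22.3%) held exactly 1 and stand between the classes. Pdcd1 itself was thus used to build the classes, and its own level is given as a description.

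The cells were splenic GD2TIF cells, sorted as CD8+Thy1.1+ at 2 months after transfer. They began as activated T cells with a Cas9 transgene that were infected with a retrovirus directed against Bcor and Zc3h12a and carrying 14g2a, a chimeric antigen receptor (CAR) for the ganglioside GD2, and 1000000 were given to each immunocompetent C57BL/6 mouse. All cells of both classes share this history, the organ and the sort, and no unedited or CAR-free group was analysed here. The labels do not say how many mice were pooled. There is 1 RNA library, with 1 library of T cell receptor (TCR) transcripts beside it, so cells are not replicates and no test was run. Every interval below is 95% and covers counting error alone. How far mice or libraries would differ was not measured.

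PD-1 is induced when a T cell receives a signal through its antigen receptor, and in most activated cells it is lost again once the stimulus ends. On binding PD-L1 or PD-L2 its cytoplasmic tail recruits the phosphatase SHP-2, which dampens signalling from the antigen receptor and from CD28. Lasting PD-1 is best known from exhausted CD8 T cells in chronic infection and tumours, where a stem-like subset keeps the factor TCF-1, encoded by Tcf7, and terminal subsets lose it.

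Pdcd1 stood at 350 counts per 1000000 UMIs (CPM) over the kept cells and at 1028 CPM (996 to 1060) in the high class. Within that class 471 cells had 2 Pdcd1 UMIs, 268 had 3, 139 had 4, 81 had 5 and 162 had 6 or more, with a maximum of 18. A count of 0 does not show that a cell lacked the transcript: at the mean level and the median depth of 2637 UMIs, 39.8% of cells would read 0 by counting alone. Such cells, with 0.92 Pdcd1 UMIs due, can also read 2 or more by counting alone, and that share was not computed. Depth moved with the classes, with a median of 2960 UMIs in high, 2624 in 1-UMI and 2544 in undetected cells. The share of high cells was 17.0% among cells of 2000 to under 2500 UMIs and 44.4% among those of 4000 or more, while Pdcd1 itself was 340 and 398 CPM there. At the depth limit, 14.9% of the cells with 1900 to 1999 UMIs and 18.1% of those with 2000 to 2099 held 2 or more Pdcd1 UMIs. After every cell was thinned to 2000 UMIs, 764 cells (15.9%) still held 2 or more and 2963 (61.7%) held 0. Median mitochondrial shares were 3.28% in high and 3.30% in undetected cells.

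Both classes carried the transcripts of CD8 T cells. Cd8b1 was at 408 CPM in high and 407 in undetected cells, Cd8a at 218 and 204, and Cd4 had 0 and 7 UMIs. As a measure of free RNA, barcodes of any depth with under 20% mitochondrial UMIs were divided by 7 B cell genes that are not immunoglobulin genes. Of the 17 barcodes with at least 3 of these genes (median 2124 UMIs), 1 (5.88%, 0.149 to 28.7) held a Pdcd1 UMI and none held 2. Of the other 10323 (median 1920 UMIs), 35.4% held a Pdcd1 UMI. The T cell gene Cd3e had a UMI in 5 of the 17, so free RNA cannot be told apart here from barcodes that also held a T cell. Summed over a list of 10 B cell markers, which includes the immunoglobulin genes Ighm, Ighd and Igkc, levels were 698 CPM in high, 691 in 1-UMI and 1267 in undetected cells. In 1 undetected cell lay 73.5% of that class's Igkc. In the high class 9 of the 10 markers had a UMI, with Pax5 at 0 and Cd79a, Ms4a1 and Bank1 at 2 to 4 UMIs each, and 6.07% of cells held 3 or more of the 10 against 2.95% of undetected cells. Myeloid markers summed to 123, 104 and 117 CPM in high, 1-UMI and undetected cells, and in high cells only Itgam, Cd68, Ctss and Ly86 of the 9 measured had a UMI. For NK cells the sums were 15.1, 6.92 and 14.3 CPM, with Ncr1 and Klrb1c at 0 in high cells. Erythroid markers summed to 8.31, 11.6 and 441 CPM, and the 1 stromal marker measured, Col1a1, had 1, 1 and 10 UMIs. Markers of CD4 or regulatory T cells summed to 437, 354 and 325 CPM, most of it from Ikzf2 and Ctla4, which CD8 T cells also express. Transcripts of damaged or nuclear RNA summed to 36146, 39295 and 41700 CPM, and effector CD8 markers to 422, 173 and 117. In an alternative to the folds below, every barcode with 3 or more B cell, myeloid, erythroid or stromal markers was left out. Then 143 genes were higher and 59 lower of 6349. The 68 high cells left out all passed by the B cell list with its immunoglobulin genes, in shares not adjusted for depth. By the 7 B cell genes, no B cell-like barcode held 2 or more Pdcd1 UMIs, so these 68 were not shown to be another cell type.

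The TCR library, which the choice of cells did not use, gave each class its receptors. A productive TRB chain was found for 541 high cells (48.3%) and 1180 undetected cells (45.2%). Cells with a second TRB made up 7.76% and 7.71% of these, and the median TRB contig had 19 UMIs in each class. Cells descended from 1 founder share the nucleotide sequence of the TRB junction loop (CDR3), the part of the receptor that meets the peptide, and such cells are called a TRB family here. The largest family, TRBV15 TRBJ1-1, was taken by its CDR3 protein sequence, which 3 nucleotide versions encode, and held 518 of the kept cells. It took 173 of 541 high cells with a TRB (32.0%, 28.1 to 36.1), 127 of 509 1-UMI cells and 218 of 1180 undetected cells (18.5%, 16.3 to 20.8).

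Pdcd1 differed widely between families, and the CDR3 sequences below identify the 3 of highest and the 3 of lowest level among the 12 families with at least 25 cells, together with the largest. They are read from the deposited contigs, 5′ to 3′, and capitals mark the middle of the loop, without its first 4 and last 4 codons. V and J names are those of the deposited calls, which give a pair of V segments for 2 families.
TRBV12-2+TRBV13-2 TRBJ2-5: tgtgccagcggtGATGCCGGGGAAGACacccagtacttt
TRBV29 TRBJ1-1: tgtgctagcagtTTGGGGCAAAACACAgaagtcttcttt
TRBV19 TRBJ1-1: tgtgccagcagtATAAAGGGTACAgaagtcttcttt
TRBV15 TRBJ1-1 (largest): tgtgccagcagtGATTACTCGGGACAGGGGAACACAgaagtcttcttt
TRBV12-2+TRBV13-2 TRBJ2-3: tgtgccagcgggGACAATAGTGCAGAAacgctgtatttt
TRBV13-3 TRBJ2-1: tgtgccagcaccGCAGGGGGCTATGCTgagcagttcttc
TRBV12-1 TRBJ2-4: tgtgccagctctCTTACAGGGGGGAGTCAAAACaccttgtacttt

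Among cells with exactly 1 TRB, the TRBV12-2+TRBV13-2 TRBJ2-5 family had the highest Pdcd1 level, 860 CPM (689 to 1059, 39 cells). TRBV29 TRBJ1-1 followed at 621 CPM (537 to 714, 103 cells), TRBV19 TRBJ1-1 at 522 (390 to 685, 28 cells) and the largest family, TRBV15 TRBJ1-1, at 483 (447 to 523, 476 cells). The counting interval of each of these 4 overlaps that of the next. At the other end stood TRBV12-1 TRBJ2-4 with 61.4 CPM (31.7 to 107), where 1 of 59 cells was Pdcd1 high and 81.4% were undetected. TRBV13-3 TRBJ2-1 was at 169 CPM (106 to 256, 47 cells) and the second largest family, TRBV12-2+TRBV13-2 TRBJ2-3, at 197 (174 to 221, 463 cells, 12.7% of them high). The intervals of neighbours overlap at this end too. The second largest family supplied 26.0% of undetected but 11.8% of high cells with 1 TRB. Cells outside these 12 families were at 406 CPM (375 to 439, 542 cells) and cells without a TRB at 337 (324 to 350).

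**Figure D1:**
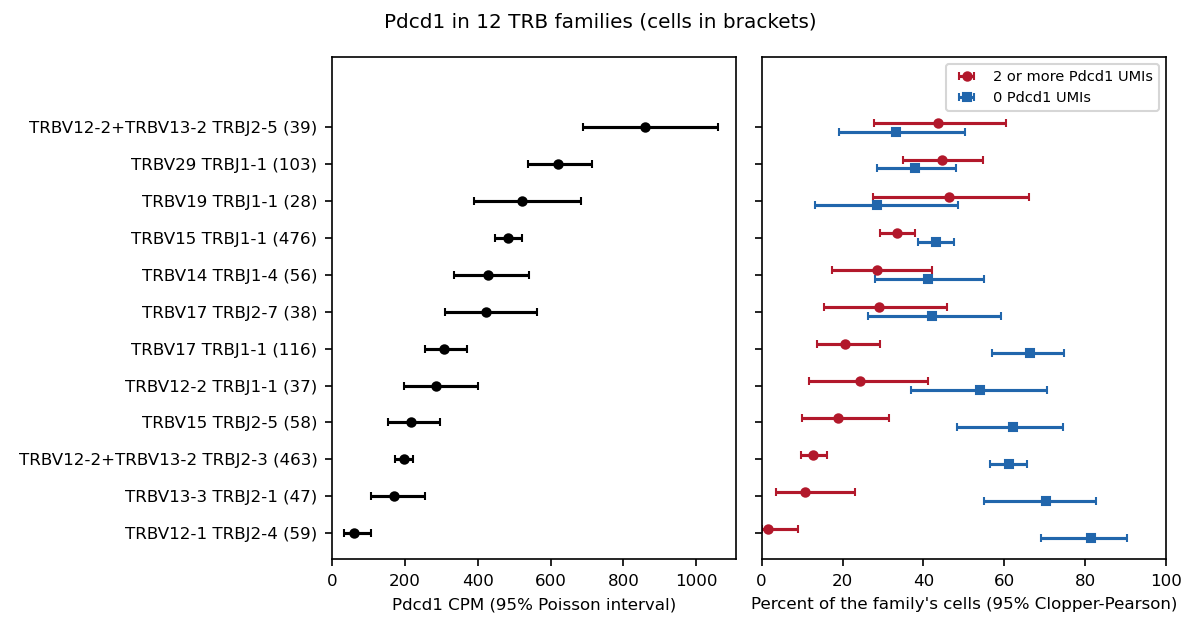
Pdcd1 CPM in each TRB family of at least 25 cells with exactly 1 TRB (left, 95% Poisson interval) and the percent of the family's cells with 2 or more or with 0 Pdcd1 UMIs (right, 95% Clopper-Pearson interval). Levels run from 61.4 to 860 CPM, and the 3 families with most Pdcd1 have more high than undetected cells.

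Other transcripts of these families did not follow a single order with Pdcd1. Tcf7 was 391 CPM in the family of highest Pdcd1, 457 in TRBV29 TRBJ1-1 and 372 in the largest family, against 716 in the family of lowest Pdcd1, but 623 in TRBV19 TRBJ1-1. Ccl5 was 2794 CPM in the family of highest Pdcd1, 3895 in TRBV17 TRBJ1-1 with Pdcd1 at 308, and 141 in TRBV19 TRBJ1-1 with Pdcd1 at 522. Tox, a factor that sustains exhausted cells, lay between 532 and 801 CPM in all 12. These values share 1 library, and each rests on at most 476 cells.

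For the rest of the transcriptome, counts were summed over each class and compared as CPM. Of 6510 genes with at least 200 UMIs over both classes, leaving out Pdcd1, 148 were at least 1.5-fold higher in Pdcd1 high cells (2.27%) and 67 at least 1.5-fold lower (1.03%). The median fold over all these genes was 1.02. Outside the largest TRB family, with 948 high and 2391 undetected cells, 152 of 6171 genes were higher (2.46%) and 68 lower (1.1%). Only cells with that family's TRB were taken out. Cells without a recovered TRB, 580 of them Pdcd1 high, stayed in and can include cells of the family. Of the genes past 1.5-fold in all cells, 118 higher and 53 lower were also past it outside that family, which is 79.7% and 79.1% of the lists from all cells and 77.6% and 77.9% of the lists from outside it. The cells outside are part of all kept cells, and a gene under 200 UMIs there could not be shared. This overlap is therefore no measure of replication.

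Among named genes with at least 200 UMIs, the largest folds were those of the chemokine receptor gene Cxcr6 and the chemokine genes Ccl3 and Ccl4. Cxcr6, the receptor for CXCL16 on tissue-dwelling T cells, was at 124 CPM (113 to 135) in high and 13.5 (10.9 to 16.4) in undetected cells, 9.19-fold (7.39 to 11.5). Ccl4 was at 67.7 against 8.44 CPM, 8.03-fold, and Ccl3 at 46.5 against 5.71, 8.13-fold. Both encode inflammatory chemokines, as does Ccl5, which was far more abundant at 1726 against 623 CPM, 2.77-fold (2.67 to 2.88). Outside the largest family the folds were 9.94 for Cxcr6, 8.56 for Ccl4, 11.8 for Ccl3 and 2.91 for Ccl5. Cells with a Cxcr6 UMI made up 11.9% of high and 2.38% of undetected cells after thinning to 2000 UMIs (14.6% and 2.91% before), against 1 of the 17 B cell-like barcodes. For Ccl5 the thinned shares were 38.4% and 29.8% (47.2% and 34.9% before), against 5 of 17. Because 5 of these 17 also held Cd3e, this count does not separate free Ccl5 RNA from barcodes with a T cell.

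Cells with at least 2 of Gzma, Gzmb, Ccl3, Ccl4 and Cxcr6, called effector-like here, were 74 of 1121 high cells (6.60%, 5.22 to 8.22), 12 of the 1071 cells with 1 Pdcd1 UMI (1.12%) and 18 of 2609 undetected cells (0.690%, 0.409 to 1.09). After thinning the shares were 5.08% and 0.537% in high and undetected cells. The class is a range and not a cell type, since a further 177 high cells (15.8%) and 150 undetected cells (5.75%) held exactly 1 of the 5 genes. The 74 cells carried 84.9% of the high class's Ccl3, 79.7% of its Ccl4 and 52.0% of its Cxcr6, shares that the definition partly sets. Of genes outside the definition, they carried 3323 of 6648 Ccl5 UMIs, 12 of 774 UMIs of the chemokine Xcl1 and 9.67% of Pdcd1. Without effector-like cells, a step that lowers the 5 genes by its own construction, the folds were 5.40 for Cxcr6, 2.44 for Ccl4, 1.68 for Ccl5 and 1.48 for Ccl3.

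Within the Pdcd1 high class, effector-like and other cells also differed in genes that did not define them. Pdcd1 was at 1492 CPM in effector-like high cells and at 994 in the other 1047 high cells. Tcf7 was at 121 CPM (82.0 to 171) in the former, 498 (475 to 521) in the latter and 688 (669 to 707) in undetected cells that were not effector-like. Id2, an inhibitor of E proteins that favours effector fate, was at 966, 149 and 92.5 CPM in the same order. Lag3 was at 962, 291 and 211, and Havcr2, the gene of TIM-3, a receptor of terminally exhausted cells, at 113, 12.2 and 1.78. Nkg7, a granule protein, was at 6912, 2685 and 2105 CPM. Tox did not separate these groups in the same way, with 608, 700 and 611 CPM.

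Among transcription factors of effector and exhausted cells, 5 of 18 were past 1.5-fold higher and 0 lower, with a median fold of 1.18. Over all 6510 genes 2.27% were past 1.5-fold higher and 1.03% lower, the shares to set beside this and each list below. Prdm1, which encodes the repressor Blimp-1, was at 38.2 against 10.9 CPM, 3.51-fold (2.65 to 4.66). Tox2, a relative of Tox, was at 89.5 against 31.6 CPM, 2.84-fold (2.39 to 3.36), and Maf at 90.8 against 34.0, 2.67-fold (2.26 to 3.15). Id2 was 2.15-fold and the orphan receptor Nr4a2, induced by antigen receptor signals, 1.64-fold. These differences remained without effector-like cells, at 3.18 for Prdm1, 2.79 for Tox2, 2.44 for Maf, 1.62 for Id2 and 1.53 for Nr4a2. Tox itself was at 694 against 610 CPM, 1.14-fold (1.08 to 1.19), Batf 1.15-fold and Nfatc1 1.09-fold. Eomes was at 0.90 and Nfatc2, a factor activated by calcium signals from the receptor, at 0.70.

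Inhibitory receptors other than PD-1 were higher in part. Of 11 with enough counts, 3 were past 1.5-fold higher and 0 lower, with a median of 1.11. Tigit was at 125 against 61.8 CPM, 2.03-fold (1.78 to 2.31), Cd200r1 at 37.4 against 19.5, 1.92-fold, and Lag3 at 336 against 211, 1.59-fold. Cd160 stood at 1.49, Ctla4 at 1.45 and Cd5 at 0.86. Havcr2 fell short of 200 UMIs, with 73 UMIs in high and 14 in undetected cells, or 18.9 against 1.91 CPM. Of the proteins through which PD-1 acts, SHP-2 (Ptpn11) was at 247 against 226 CPM, SHP-1 (Ptpn6) at 335 against 363 and the ubiquitin ligase Cbl-b (Cblb) at 104 against 81.4. Of these PD-1 ligands and partners 1 of 11, the adaptor Dok1 at 1.57-fold, was past 1.5-fold, with a median of 1.09.

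Memory and stemness genes were lower. None of 19 was past 1.5-fold higher and 7 were past it lower, with a median of 0.80, and all 19 stood below 1. Of all 6510 genes, 2951 stood below 1. Tcf7 was at 473 CPM (451 to 495) against 684 (666 to 704), 0.69-fold. Il7r, the receptor for the survival cytokine IL-7, was at 57.1 against 94.8 CPM, 0.60-fold. Id3, an inhibitor of E proteins in memory cells, was at 187 against 293 CPM. The follicle receptor Cxcr5 was at 0.63 and the cytokine gene Ltb at 0.66. Lef1, the relative of Tcf7, was at 0.94 and Bach2 at 0.99, so these members of the list stood close to the middle of all genes. The list median was 0.80 outside the largest family, 0.82 without effector-like cells, 0.75 within depth strata and 0.89 with strata of TRB family, and 5 of the genes were past 1.5-fold lower outside the largest family.

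**Figure D2:**
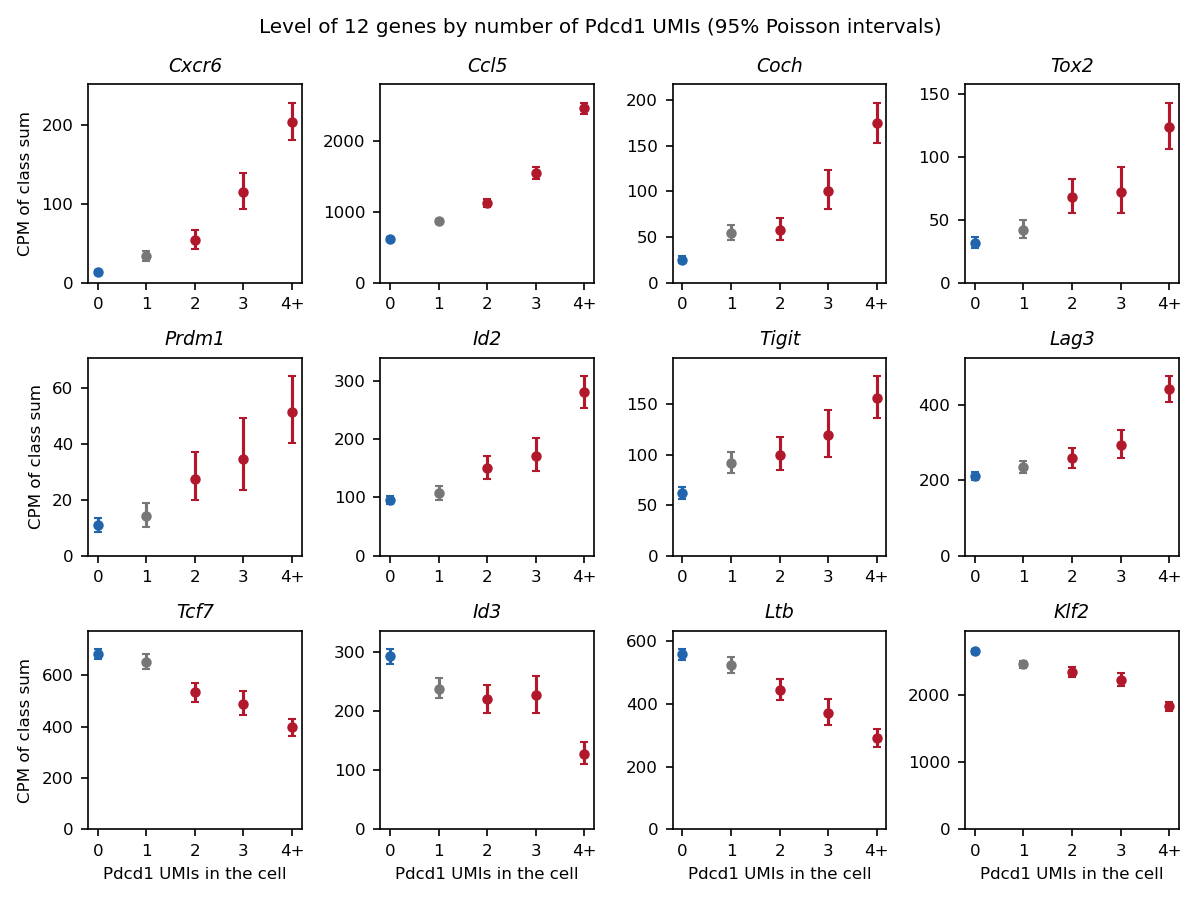
CPM of 12 genes in cells with 0, 1, 2, 3 and 4 or more Pdcd1 UMIs, each point a class sum with its 95% Poisson interval. Cxcr6 runs from 13.5 CPM at 0 to 203 at 4 or more Pdcd1 UMIs, and Tcf7 from 684 to 397.

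The levels of Cxcr6, Ccl5, Tox2, Prdm1 and Maf were higher at each step from 0 to 4 or more Pdcd1 UMIs, a number that itself moved with depth (median 2872 UMIs in cells with 2 and 3759 in cells with 6 or more). The intervals were apart at each step for Cxcr6 and Ccl5 only. Tox2, for example, was at 67.7 CPM (55.3 to 82.1) with 2 and 71.8 (55.3 to 91.7) with 3. Some steps of Prdm1 and Maf overlapped as well. Cells with 1 Pdcd1 UMI, just outside the high class, had Cxcr6 at 33.3 CPM, and cells with 2, just inside, had it at 53.9. Tox2 was at 42.1 and 67.7 CPM and Prdm1 at 14.2 and 27.6 in the same pair of classes. Tcf7 was at 654 CPM with 1 and 534 with 2 Pdcd1 UMIs, and Id3 at 238 and 220. Coch did not differ beyond its interval between 1 and 2, at 54.1 and 57.9 CPM, and reached 174 at 4 or more. Other genes had no such order: Ccl3 was at 71.8 CPM with 3 and 59.0 with 4 or more, Ccl4 at 101 and 93.0, Bbs9 at 34.9 with 2 and 19.1 with 3, and Mt1 at 66.5 with 0 and 76.7 with 1. The intervals overlap in each of these pairs.

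The remaining genes of largest fold belong to varied families. Coch, which encodes the secreted protein cochlin, was at 111 CPM (101 to 122) against 25.2 (21.7 to 29.1), 4.41-fold. Coq8a, a kinase-like protein of coenzyme Q synthesis, was 4.14-fold, the actin-severing protein gelsolin (Gsn) 3.67-fold and autotaxin (Enpp2), which makes lysophosphatidic acid, 3.47-fold. Chn2, an inhibitor of Rac, was at 67.7 against 22.6 CPM and Crem, a cyclic AMP responsive factor, 2.61-fold at 207 against 79.5 CPM. Bbs9, Hip1, Serpine2, Susd2, Muc4, Dkk3 and Pdia5 lay between 2.23 and 2.88. After thinning, 28.9% of high and 11.5% of undetected cells held a Crem UMI (37.6% and 14.5% before) and 16.1% and 5.37% a Tox2 UMI (21.9% and 7.28% before), and 0 of the 17 B cell-like barcodes held either.

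At the lower end, the haemoglobin genes Hbb-bt, Hba-a2, Hbb-bs and Hba-a1 came first, and 97.3% of the erythroid UMIs of undetected cells lay in 1 cell. Cd74 and H2-Aa, antigen presentation genes of B cells and myeloid cells, followed at 0.039 and 0.067, and 92.9% and 88.4% of their UMIs in undetected cells lay in cells with 3 or more markers of another type. With strata of TRB family, described below, they stood at 1.03 (0.50 to 2.13) and 1.80 (0.41 to 7.83). Next were Mt1 at 0.24, the chromatin organiser Satb1 at 9.34 against 25.6 CPM, 0.37-fold, and Dapl1 at 0.38. Kbtbd11 was at 39.2 against 93.5 CPM, 0.42-fold (0.35 to 0.50), and Gpr183, which guides cells within the spleen, at 27.3 against 57.8, 0.47-fold. Dtx1, a Notch pathway ligase, was at 0.46, Fam78a at 0.52, the Wnt target Axin2 at 0.53 and Arl4c at 0.54.

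Of 10 genes of cytotoxic granules, 1 was past 1.5-fold higher and 0 lower, 7 stood above 1 and 3 below, and the median was 1.23. Over all 6510 genes, 3559 stood above 1 and 2951 below. Serpinb9, which protects the cell from granzyme B, was 1.57-fold, perforin (Prf1) 1.48-fold at 267 against 181 CPM, Gzmk 1.45-fold (1.05 with strata of TRB family), Nkg7 1.40-fold and Cst7 1.38-fold. Gzma and Gzmb were under 200 UMIs. Of 9 chemokines and cytokines, 3 were higher (Ccl3, Ccl4 and Ccl5) and Tnfsf14, at 0.55, was lower. In the homing list of 14 genes, Cx3cr1 at 2.14 and Xcr1 at 1.63 were higher beside Cxcr6, and Gpr183 was lower.

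Receptors that amplify T cell signals were divided. Of 11 costimulatory genes, Tnfrsf1b (TNFR2) at 1.66 and Sh2d1a, the adaptor SAP, at 1.52 were higher, and Cd28 was lower at 63.1 against 101 CPM, 0.62-fold (0.54 to 0.72). Of 17 genes that respond to antigen receptor signals, Icos at 595 against 360 CPM, 1.65-fold (1.56 to 1.75), and Tnfrsf9, which encodes 4-1BB, at 1.58 were higher and Nfkbid at 0.59 was lower. Of 24 T cell identity and proximal signalling genes none passed 1.5-fold either way, and the largest folds were 1.45 for Cd3g and 1.28 for Cd3e. The AP-1 and heat shock genes, which also mark handling of cells, had 0 of 14 past 1.5-fold. All 14 were below 1, as were 2951 of all 6510 genes. The list median was 0.86, with Jun at 433 against 646 CPM and Fos at 355 against 510.

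Metabolic, interferon and quiescence lists had medians between 0.90 and 1.07. Oxidative phosphorylation genes had 0 of 19 past 1.5-fold and a median of 1.07, and glycolysis genes 0 of 14 and 1.04. In the interferon response 0 of 19 passed, with a median of 1.06, and in quiescence 0 of 14, with 0.90. Of the cell cycle list 1 of 6, Mcm3 at 1.58, was past 1.5-fold. The survival list had a median of 1.04. Of the edited genes, Bcor was at 170 against 174 CPM (0.98-fold, 0.89 to 1.08) and Zc3h12a at 46.2 against 51.2 (0.90-fold, 0.75 to 1.08), and a transcript can persist after an edit, so these levels do not check it. Of 7 genes of the Polycomb complex that holds Bcor none passed 1.5-fold, and of 11 transcripts that Regnase-1, the product of Zc3h12a, is known to bind or that regulate it, Icos was higher and Nfkbid lower.

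Smaller lists held single genes that stood out. Of 21 cytokine receptor and Jak-Stat genes none passed 1.5-fold, with a median of 1.03 and the largest fold, 1.49, in the interferon gamma receptor chain Ifngr1. Of 13 chromatin regulators none passed, with a median of 0.89. Follicular genes had 3 of 9 higher (Maf, Tox2 and Sh2d1a) and 2 lower (Cxcr5 and Prg4), and 1 lower outside the largest family, where Prg4 stood at 0.68. Prg4 was at 0.66 in all cells, 0.72 within depth strata and 0.75 with strata of TRB family, and passed 1.5-fold in 4 of 15 settings. Among 5 mevalonate and lipid genes Mvd was higher at 1.55, but 0.99 with strata of TRB family. In the list of Ly6 proteins and serpins, 2 of 7 were higher (Serpine2 and Serpinb9) with a median of 0.84, and Ly6a stood at 0.78 in all cells but at 1.39 with strata of TRB family. MHC and presentation genes had 0 of 15 higher and 2 lower, Cd74 and H2-Aa, with a median of 1.06. Of 129 ribosomal protein genes none passed, with a median of 0.96, and of 13 mitochondrial genes none, with a median of 1.01.

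**Figure D3:**
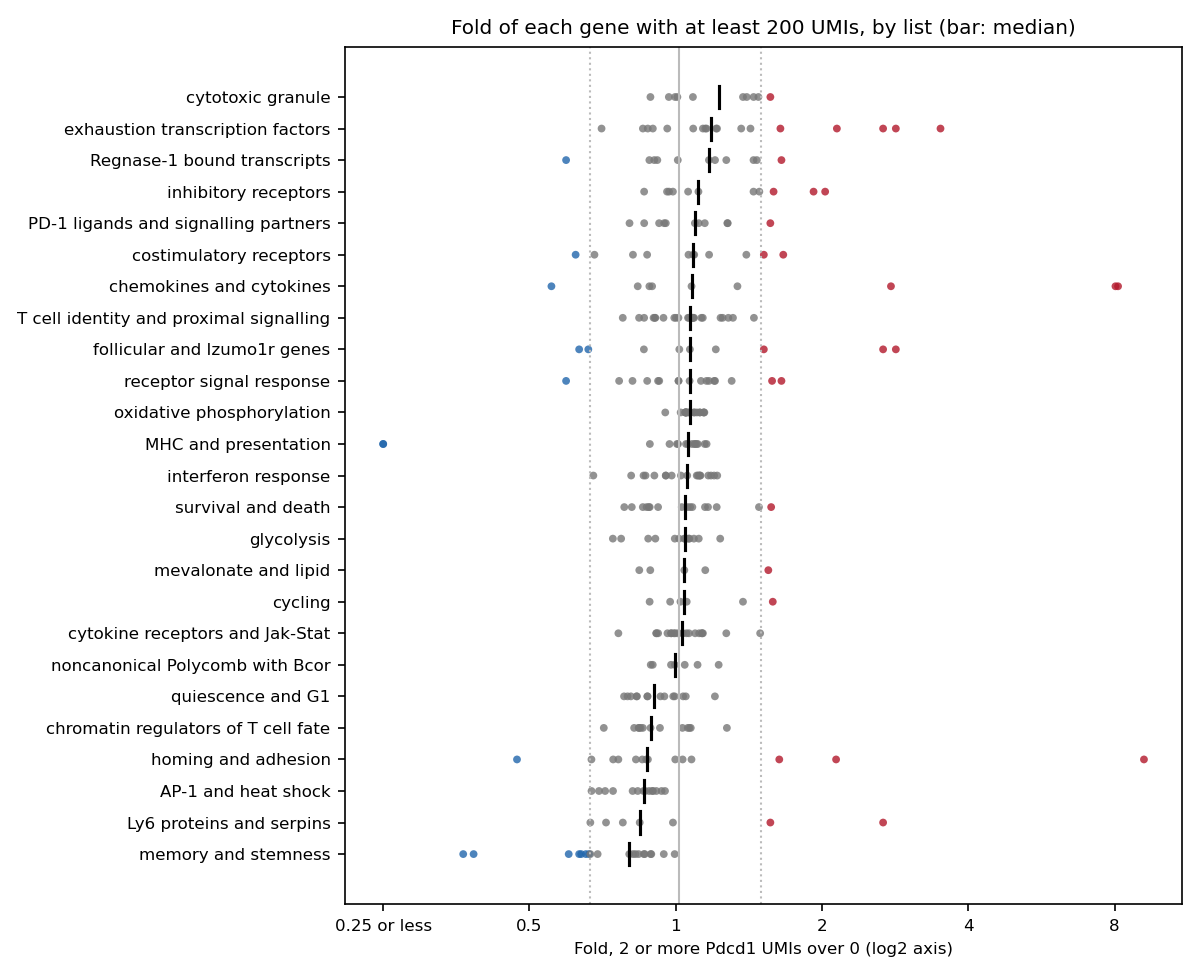
Fold of Pdcd1 high over undetected cells for each gene with at least 200 UMIs, by gene list, on a log2 axis, with dotted lines at 1.5-fold either way and black bars at list medians. Memory and stemness genes, with a median of 0.80, lie below the median of all genes, 1.02, and the chemokine and homing lists hold the points near 8 and above, while Cd74 and H2-Aa are drawn at the left edge.

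Because families differed in Pdcd1, each gene was also compared within TRB families, as a fold stratified over all families with cells of both classes. This uses only cells with exactly 1 TRB. In those 499 high and 1089 undetected cells, 94 of 3759 genes were higher and 37 lower without strata (2.50% and 0.98%). Family strata also drop cells of families found in only 1 class, so they rest on fewer cells. With these strata, 36 of 3376 genes were higher and 23 lower (1.07% and 0.68%). Cxcr6 was then 6.64-fold (4.21 to 10.5), Coq8a 3.14, Prdm1 2.22 (1.47 to 3.35), Coch 2.19, Ccl5 2.15, Maf 1.82, Tigit 1.74, Tox2 1.69 (1.31 to 2.18) and Crem 1.63. Ccl4 was 4.12-fold (2.48 to 6.85) and Ccl3 3.16-fold (1.88 to 5.32). Muc4 at 2.15, Gsn at 1.95, Chn2 at 1.87, Enpp2 at 1.85, Hip1 at 1.80 and Susd2 at 1.55 (0.96 to 2.51) stayed past 1.5-fold, and Bbs9 at 1.49 (0.89 to 2.49) and Pdia5 at 1.48 (0.92 to 2.37) did not. Nearer to 1, Serpine2 was 1.29, Dkk3 1.24, Icos 1.22 and Gzmk 1.05, and Dapl1 moved to 1.12. Tcf7 was 0.77 (0.70 to 0.85) and Kbtbd11 0.55 (0.41 to 0.73), while Id3 was 0.82. Of the other genes of lowest fold, Fam78a at 0.59 and Axin2 at 0.63 stayed past 1.5-fold lower. Mt1 at 0.79 (0.47 to 1.32), Satb1 at 0.70 (0.36 to 1.34), Gpr183 at 0.72 (0.51 to 1.01), Arl4c at 0.81 (0.49 to 1.36) and Dtx1 at 0.67 (0.41 to 1.09) were no longer past it. Id2 and Nr4a2, at 1.45 each, and Lag3, at 1.48, were under 1.5-fold with these strata.

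In 8 families, with 343 high and 692 undetected cells, both classes had at least 10 cells. Genes were counted here only if named, many of them by their fold in these same cells, and the share over all genes was not computed. Crem was higher in the high cells of 8 of the 8, and Coq8a, Tox2, Tigit and Nkg7 in 7. Tcf7, Slamf6, Klf2 and Kbtbd11 were lower in 8 of 8, and Fam78a and Axin2 in 7. Ccl5 was higher in 3 and lower in 5, and Tox was higher in 4 and lower in 4. Id2, 2.15-fold over all kept cells, was higher in 4 and lower in 4. Il7r, 0.60-fold over all kept cells, was higher in 5 and lower in 3. Gzmk was lower in 6, Bbs9 higher in 3 and lower in 3, and Satb1 higher in 4 and lower in 1. Inside the largest family alone the fold was 3.56 for Cxcr6 (1.35 to 11.0, 24 UMIs over both classes), 3.56 for Ccl4 (0.64 to 36.1) and 0.82 for Ccl3 (0.31 to 2.08). There it was 1.88 for Ccl5, 1.88 for Maf, 1.16 for Crem (0.92 to 1.47), 1.13 for Lag3 and 0.67 for Tcf7.

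**Figure D4:**
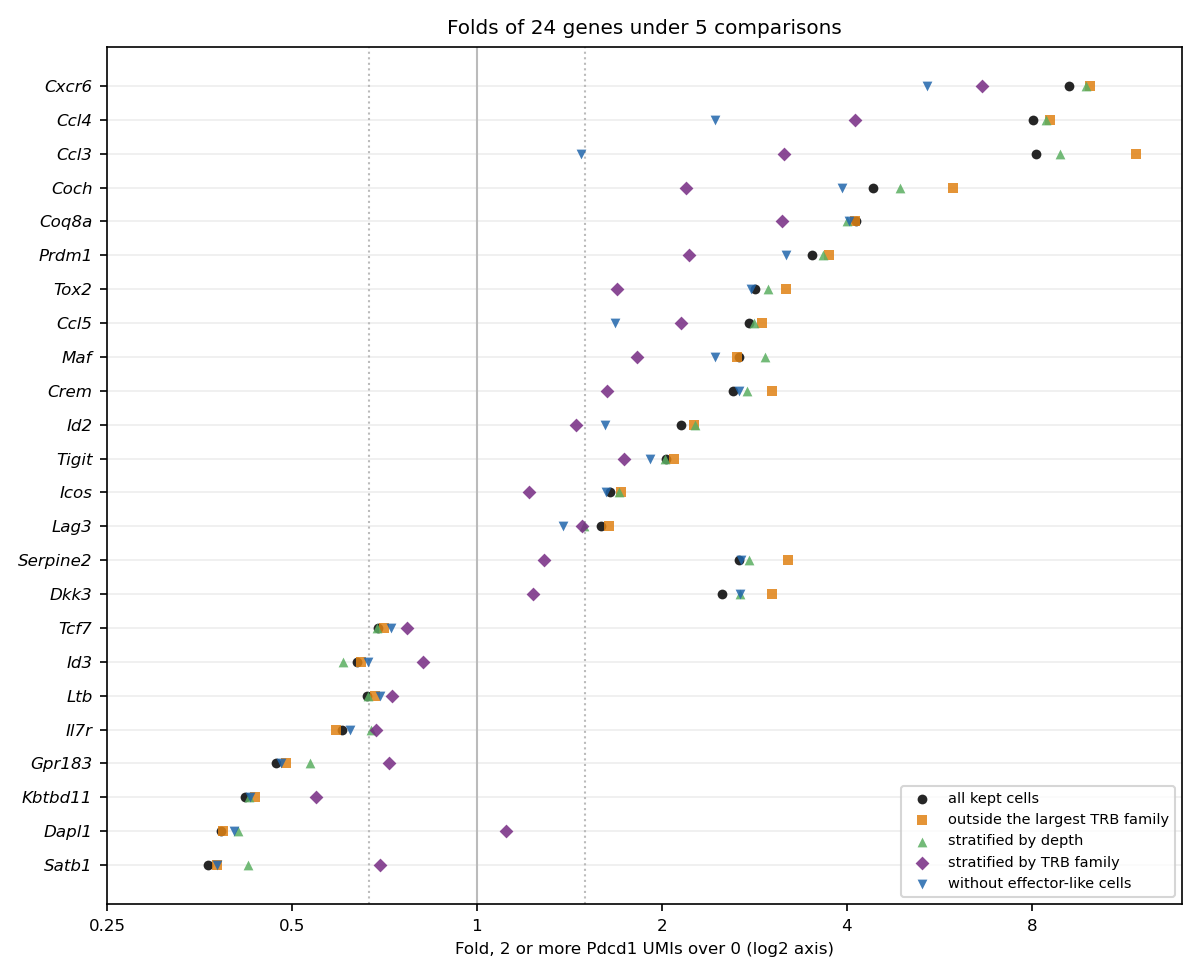
Folds of 24 genes, chosen after their values were seen, in all kept cells, outside the largest TRB family, stratified by depth, stratified by TRB family and without effector-like cells, on a log2 axis with dotted lines at 1.5-fold. Points from family strata lie nearest to 1 for Dapl1 (1.12), Icos (1.22) and Id3 (0.82), and points for depth strata lie close to those of all kept cells.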

How the data were processed

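The RNA matrix was deposited by the authors as raw UMI counts per gene and barcode, and the contig table with UMI counts per TCR contig. Per the submitters' processing notes, the tools were cutadapt 1.17, STAR 2.6.1a and featureCounts 2.0.1 on GRCm38. The program that assembled the receptor contigs was not given in the sources used here. Libraries were joined on the barcode, and 4590 barcodes stood in both. With python 3.11.15, numpy 2.4.6, scipy 1.17.1 and pandas 2.3.3, UMIs were summed per class and divided by the class total (CPM), with exact Poisson intervals, exact conditional intervals for folds and Clopper-Pearson intervals for shares. Strata were combined by Mantel-Haenszel ratios. The fold code was tested on simulated data. The classes held 3852703 (high), 3179745 (1 UMI) and 7349235 (undetected) UMIs.

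No doublet caller was used; barcodes with 2 or more TRB were left out in an alternative. Named genes are any of the 25 lists and 8 marker lists, plus the 20 of largest and 15 of smallest fold (10 and 8 outside the largest family) with at least 200 UMIs, 1.5-fold and CPM intervals apart, without receptor, immunoglobulin, mitochondrial and predicted genes. Some genes are not reported here. The members and lists were chosen with earlier results of these data known.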

Additional observations from a re-analysis of the deposited data

How the results depend on the processing

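Genes at least 1.5-fold higher and lower were 148 and 67 of 6510 in all kept cells (2.27% and 1.03%). Outside the largest TRB family they were 152 and 68 of 6171. These counts moved with the limits, and so did the number of genes tested. With 3 or more Pdcd1 UMIs (650 cells) 115 of 6048 genes were lower (1.90%), and 116 of 5779 outside the family. With 1 or more (2192 cells) 84 and 36 of 7231 (1.16% and 0.50%), and outside the family 75 and 33 of 6922, passed. At 3000 UMIs or more (546 cells) it was 84 and 40 of 4191 (2.00% and 0.95%), and 90 and 32 of 3920. The largest family then took 24.02% of high cells with a TRB. Family strata gave 36 and 23 of 3376 (1.07% and 0.68%), and 32 and 21 of 2605. Cells with exactly 1 TRB (499 high) gave 94 and 37 of 3759 (2.50% and 0.98%), and 84 and 41 of 3022. A minimum of 500 UMIs per gene gave 55 and 23 of 3640 (1.51% and 0.63%), and 57 and 22 of 3305. A minimum of 50 gave 469 and 279 of 9615 (4.88% and 2.90%), and 476 and 297 of 9450. A fold of at least 2 gave 31 and 14, and 28 and 15 and a lower limit of fold gave 590 and 350, and 590 and 364. The deposited clonotype 1 in place of the TRB held 18.1% of high cells. Removing cells with any Cxcr6, Ccl3 or Ccl4 UMI, chosen after seeing the data, left 101 of 5834 genes higher outside the family. Leaving out cells with markers of other types and cells of 6000 or more UMIs were also chosen after seeing the data.

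The 61 named genes past 1.5-fold were taken by their fold in these same cells, and the settings share many cells. Staying past 1.5-fold is thus partly built in, and the share over all called genes is not given here. Of the 61, 18 stayed past it in each of 15 settings, and Cxcr6 and Ccl4 in each of the 14 run on them. Under family strata 33 did, and Cd74 (1.03), H2-Aa (1.80), Dapl1 (1.12) and Mvd (0.99) changed direction. Without cells with markers of other types Hbb-bt (1.99, 0.025 to 156), Hba-a2 (1.39, 0.45 to 4.05) and Hba-a1 (1.99, 0.88 to 4.50) did. Thinned to 2000 UMIs Mcm3 (0.98, 0.65 to 1.45) did. Each of these intervals includes 1, so no reversal is shown, and the cause was not tested. One library bounds every value: spread between mice is not measured, and 1 UMI in 2000 equals 500 CPM, so single cells near that level cannot be classed firmly.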

Other observations

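Some genes of the lists had fewer than 200 UMIs over both classes and were singled out here after their values were seen. Itgam, the integrin chain CD11b that activated CD8 T cells can carry, had 61 UMIs in Pdcd1 high and 22 in undetected cells, 15.8 against 2.99 CPM (5.29-fold, 3.20 to 9.05), with 5.83 outside the largest TRB family and 5.12 without effector-like cells. Il21, a helper cytokine, had 56 and 26 UMIs (4.11-fold, 2.54 to 6.82), and Fasl, a death ligand, 99 and 48 (3.93-fold, 2.76 to 5.68). Irf4, a factor that scales with antigen receptor signals, was 3.36-fold (2.23 to 5.15) and Nr4a3 2.16-fold (1.61 to 2.89).

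Of the cycling list, whose 6 genes with enough counts had a median of 1.04, Mki67 and Top2a were also singled out after their values were seen. Mki67 had 50 UMIs against 25 (3.82-fold, 2.32 to 6.44; 2.55 within depth strata) and Top2a 79 against 63 (2.39-fold, 1.70 to 3.39; 1.78 within depth strata). Izumo1r, which encodes the folate receptor FR4, was lower with 24 UMIs against 157 (0.29-fold, 0.18 to 0.45; 0.39 with strata of TRB family).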
